A study of Homo sapiens with 28 samples.

Results

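The genes described here encode 37 enzymes and complex subunits that add or remove methyl groups, mainly on histone lysines other than H3K36. They are 37 of 19970 protein-coding genes of the human annotation (GENCODE release 44, hg38) on chromosomes 1 to 22 and X. They were chosen by name. Of these, 14 were grouped as H3K4 methylation genes, and the others act on H3K9, H3K27, H4K20 or H3K79, belong to the SMYD family or are demethylases. Each gene was measured over its window, which is the gene plus 5 kb on either side.

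The data were 10 lists of broad ChIP-seq peaks from U2OS, a human osteosarcoma cell line. The dimethylated histone mark H3K36me2 was mapped in wild-type U2OS with 2 replicate lists without UV and 2 lists from cells collected 3 h after UV-C at 20 J/m2. The Flag-tagged carboxy-terminal domain of the methyltransferase ASH1L (CTD), expressed from a transfected vector with a CMV promoter, was mapped in ASH1L-/- U2OS with 3 lists without UV and 3 lists at 3 h. All cells of the CTD comparison lacked ASH1L. Those used for the ChIP carried only this fragment of it, and their control cells carried an empty vector. The control was pooled over replicates at 3 h and not pooled without UV, so control and UV cannot be told apart in the CTD comparison.

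Histone lysine methylation is read as a code of position and number. H3K4 methylation, written by KMT2A to KMT2D and the SETD1 enzymes with their shared subunits WDR5, RBBP5, ASH2L and DPY30, marks promoters and enhancers. H3K9 methylation and H4K20 trimethylation mark compact chromatin, and H3K27 methylation by the Polycomb enzymes EZH1 and EZH2 silences developmental genes. H3K36me2, written by the NSD enzymes and by ASH1L, is spread over gene bodies and intergenic chromatin, is low at active promoters and hinders H3K27 methylation on the same histone tail. The comparison asks how this mark and the ASH1L fragment lie on the genes of the other methylation enzymes, and how this differs after UV.

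Examples of the DNA under the peaks, and of promoters that were measured, are printed 5′ to 3′ on the strand of the gene, with each CG dinucleotide in capitals. CG is its own reverse complement, so a count on 1 strand is the count on both. The stretch of SMYD3, an enzyme gene of the SMYD family, is shown because, among intronic segments of at least 300 bp shared by all 4 H3K36me2 lists in these genes, its weakest peak was the strongest, at 2.40-fold enrichment over control (intron, chr1:246382399-246382698, hg38, minus strand, the middle of a shared segment of 1390 bp). The stretch of KMT2E is the middle of the longest segment, 1315 bp, covered in both lists without UV and in neither list at 3 h (intron, chr7:104966914-104967213, hg38, plus strand). The stretch of DPY30 is the middle of the longest segment, 703 bp, covered by CTD peaks in all lists at 3 h and in none without UV (intron, chr2:31908584-31908883, hg38, minus strand, within the overlapping gene MEMO1 as well).
SMYD3 intron: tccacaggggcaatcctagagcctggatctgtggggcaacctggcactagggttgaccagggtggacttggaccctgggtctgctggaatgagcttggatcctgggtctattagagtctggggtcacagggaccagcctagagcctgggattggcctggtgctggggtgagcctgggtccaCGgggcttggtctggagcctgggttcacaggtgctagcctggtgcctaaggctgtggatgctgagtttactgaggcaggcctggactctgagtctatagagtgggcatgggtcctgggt
KMT2E intron: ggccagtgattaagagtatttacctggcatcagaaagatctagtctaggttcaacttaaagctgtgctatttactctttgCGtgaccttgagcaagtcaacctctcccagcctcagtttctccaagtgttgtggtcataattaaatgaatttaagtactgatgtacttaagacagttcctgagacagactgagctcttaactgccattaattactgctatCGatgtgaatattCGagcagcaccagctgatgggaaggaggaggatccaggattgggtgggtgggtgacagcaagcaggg
DPY30 intron: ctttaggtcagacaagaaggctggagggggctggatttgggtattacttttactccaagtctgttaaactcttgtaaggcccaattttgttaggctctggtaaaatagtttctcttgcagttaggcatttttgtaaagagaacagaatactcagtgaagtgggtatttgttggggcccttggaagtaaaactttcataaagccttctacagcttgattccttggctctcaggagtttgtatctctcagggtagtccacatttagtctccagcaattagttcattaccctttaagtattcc
The SMYD3 stretch holds 1 CG, the KMT2E stretch 3 and the DPY30 stretch 0. Of 12139 tiles of 300 bases over the 37 windows, 89.2% held at least 1 CG and 55.6% at least 3.

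Promoters of these genes are rich in CG. Of the 37 genes, 33 were matched in the RefSeq promoter sequences (GRCh38.p14). Their median number of CG in the 250 bases before the start was 25, against 11 over 27305 RefSeq promoters. The RefSeq set holds the first entry of each gene symbol. It is larger than the set of 19970 protein-coding genes used elsewhere, so it is not the same background. KMT5A is shown because its promoter was the only one in which both H3K36me2 lists at 3 h lay below both lists without UV (chr12:123383882-123384131, plus strand). KMT5C is shown for the largest promoter difference between CTD lists without overlap (chr19:55339626-55339852, plus strand). EZH2 is shown because its promoter was covered in only 1 of the 10 lists, the CTD list without UV of replicate 2 (chr7:148884322-148884541, minus strand). The KMT2C promoter, not shown, was also covered in only 1 list, the CTD list without UV of replicate 3, at 6.5%.
KMT5A promoter: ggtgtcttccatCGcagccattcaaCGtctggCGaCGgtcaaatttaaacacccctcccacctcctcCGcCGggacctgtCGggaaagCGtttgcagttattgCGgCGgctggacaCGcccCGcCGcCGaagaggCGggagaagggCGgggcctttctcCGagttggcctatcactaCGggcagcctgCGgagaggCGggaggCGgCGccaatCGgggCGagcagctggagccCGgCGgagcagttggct
KMT5C promoter: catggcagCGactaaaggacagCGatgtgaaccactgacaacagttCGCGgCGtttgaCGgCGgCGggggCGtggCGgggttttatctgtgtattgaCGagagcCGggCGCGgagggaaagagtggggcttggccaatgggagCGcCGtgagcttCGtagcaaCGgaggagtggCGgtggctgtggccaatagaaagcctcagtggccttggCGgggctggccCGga
EZH2 promoter: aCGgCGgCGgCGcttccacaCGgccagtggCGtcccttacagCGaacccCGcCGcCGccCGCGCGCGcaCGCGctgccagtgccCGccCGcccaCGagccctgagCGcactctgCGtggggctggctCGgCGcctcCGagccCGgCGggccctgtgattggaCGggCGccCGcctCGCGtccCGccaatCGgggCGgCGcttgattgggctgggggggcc
The 250 bases of KMT5A hold 26 CG, and 19.2% of the RefSeq promoters held at least as many in 250 bases. The 227 bases of KMT5C hold 21 CG, which 24.0% of the RefSeq promoters reached in a run of that length. The 220 bases of EZH2 hold 35 CG, which 2.34% reached.

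Every list held exactly 500000 peaks in order of −log10 p, so the lists look cut at a fixed number, and no read depth can be read from them. Coverage is relative to that number of peaks, and lower coverage of a gene at 3 h cannot be told apart from stronger peaks elsewhere. The lists covered 13.2 to 15.1% of the chromosomes for H3K36me2 and 8.86 to 11% for the CTD. Peaks were weak. The strongest fold enrichment over control in the 37 windows was 2.41 to 3.03 in every list, and between 17 and 38 of the H3K36me2 peaks in these windows per list reached a −log10 q of 1.3, of 36290 to 52802 in each whole list. No CTD peak in the windows did, but only 14 or 15 in each whole CTD list did. The ASH1L gene itself held CTD peaks of 5.87- to 41.2-fold enrichment, in cells that carried the ASH1L fragment on a vector, and H3K36me2 peaks of 1.91- to 2.46-fold.

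The windows of the histone methylation enzyme genes held little H3K36me2. The value used throughout is the percent of the bases of a region that lie under a peak. Its mean over the 4 lists had a median of 3.62% over the 37 windows and of 7.12% over all protein-coding genes. Pooled over the windows, 10.1 and 10.3% of bases were covered without UV and 7.28 and 8.19% at 3 h, against 14.2, 14.1, 11.6 and 11.8% for all genes. SMYD3 alone, with 21.1% of the window length, held 54.5 to 66.8% of the covered bases, and without it the pooled values were 5.27 and 5.92% without UV and 3.25 and 3.45% at 3 h. In all, the windows held 417 and 442 peak centres without UV and 354 and 386 at 3 h. Of their bases, 81.6% were covered in no H3K36me2 list, against 73.4% over all genes.

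SMYD3, SETD7, KMT5C and WDR5 stood above the other genes. SMYD3, on chromosome 1, was covered at 28.3 and 26.6% without UV and at 22.4 and 26.0% at 3 h. SETD7, which encodes an H3K4 monomethyltransferase that also methylates non-histone proteins, was covered at 21.7 and 19.5% without UV and at 18.3 and 20.9% at 3 h. KMT5C, a writer of H4K20 trimethylation, was covered at 16.2 and 29.4% without UV and at 7.18 and 13.8% at 3 h. The lists at 3 h were below those without UV in SMYD3 and KMT5C, and overlapped them in SETD7. WDR5, a scaffold subunit of the H3K4 methyltransferase complexes, was covered at 14.5 and 15.9% without UV and at 9.30 and 11.4% at 3 h. In WDR5 the shared peaks lay mainly outside the gene, with a segment of 1775 bp in all 4 lists centred 2.98 kb upstream of its start.

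At the other end, 2 of the 37 genes, EZH2 and SUZ12, carried no H3K36me2 peak at all, as did 6.03% of all genes. Other Polycomb genes did carry the mark, with a mean over the 4 lists of 7.72% in EED and 3.69% in EZH1. EZH2, the catalytic subunit of Polycomb repressive complex 2, and SUZ12, a core subunit of the same complex, were at 0 in all 4 lists over windows of 87.1 and 74.0 kb. RBBP5, a core subunit of the H3K4 methyltransferase complexes, was covered at 0 and 0.53% without UV and at 0% in both lists at 3 h. KMT2C, an enhancer H3K4 monomethyltransferase, was covered at 0.10 and 0.07% without UV and at 0.22 and 0.26% at 3 h. SUZ12 and KMT2C have near-identical partial copies elsewhere in the genome, and alignments with a mapping quality under 30 had been removed. Their low values are uncertain, and the part of this filter in them was not tested. In the CTD lists, after the same filter, mean coverage was 8.76% in SUZ12 and 0.53% in KMT2C.

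**Figure D1:**
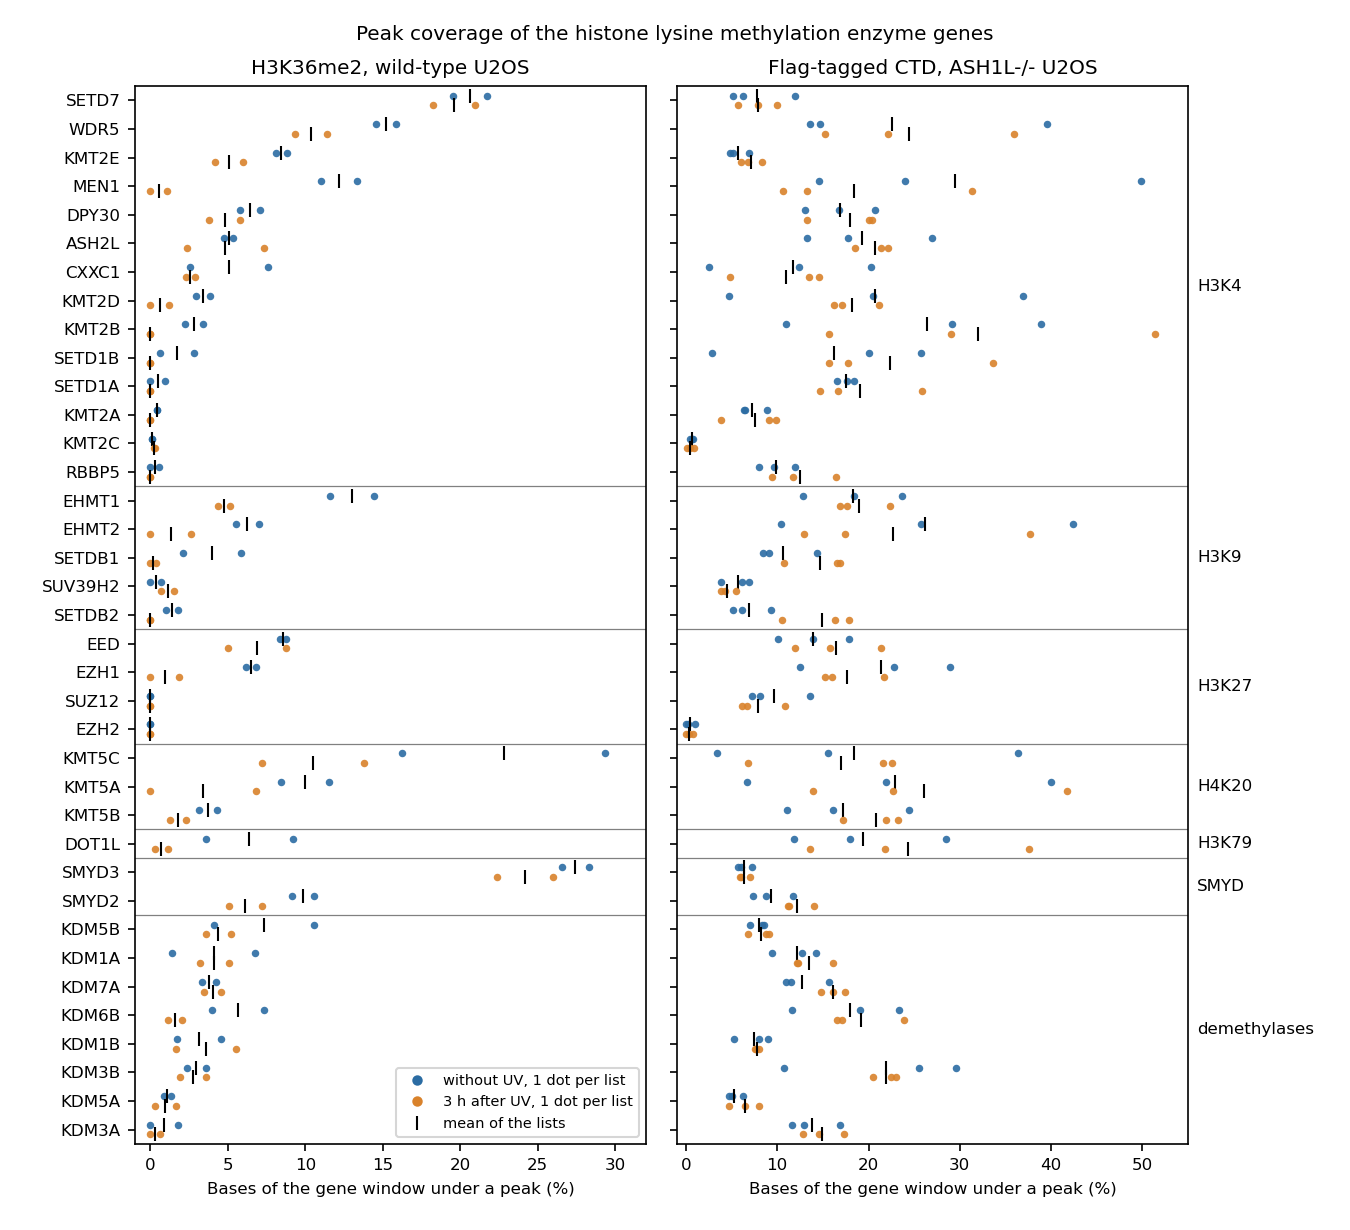
Percent of the bases of each gene window under a peak (horizontal axis, %) for the 37 genes in order of role and level, with H3K36me2 on the left and the CTD on the right. Each dot is 1 list and each vertical tick the mean of a condition. SMYD3, SETD7, KMT5C and WDR5 stand to the right for H3K36me2, where EZH2 and SUZ12 are at 0, and the CTD lists of KMT2B and MEN1 spread widely within each condition.

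Most of these windows held less H3K36me2 than the chromatin around them, while EZH2, KMT2C and SETD1A were low in both. In 33 of the 37 genes the window was covered less than the 3 Mb around it, and this held for 70.4% of all genes. The median of window minus surroundings was −9.88 percentage points over the 37 genes and −4.44 over all genes, while the median of the surroundings was 13.7 and 14.1%. RBBP5 is an example, with 0.13% in its window as the mean of 4 lists and 21.2% around it, and SUZ12 another, with 0 in its window and 15.8% around it. SMYD3, SETD7, KMT5C and EHMT1 were the exceptions, with a window above the surroundings. Across the 37 genes the window and its surroundings had a Pearson r of 0.20 and a Spearman rho of 0.22 for H3K36me2. This is a description over genes that share the same lists.

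EZH2, KMT2C and SETD1A had the lowest H3K36me2 around them, with 0.914, 1.42 and 3.70% as means of 4 lists. Around EZH2 and KMT2C the CTD lists were low as well, at 0.62 and 0.881%, against 9.91% around SETD1A. EZH2 lay in a stretch of chromosome 7 (147000001 to 151000000) covered at 0.788 to 1.01% by H3K36me2 lists and at 0.364 to 0.864% by CTD lists. KMT2C lay in a second stretch of the same chromosome arm (152000001 to 157000000), at 0.587 to 0.717% and 0.425 to 0.899%. Such megabases, under 3% in all 10 lists, made up 6.33% of the 2873 measured. The part of copy number or of read depth in them was not tested.

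After UV the H3K36me2 lists covered less of most of these windows, as they did of most genes. The difference of means, 3 h minus without UV, was negative in 30 of the 37 genes, positive in 5 and 0 in 2 (73.5% negative and 20.5% positive over all genes), with a median of −1.72 percentage points against −1.96 over all genes. Both lists at 3 h lay below both lists without UV in 19 of the 37 genes and above them in 2, SUV39H2 and KMT2C. The direction of KMT2C turned with peaks of a −log10 p of 2 or more (−0.0481 points). Over all genes the lists at 3 h lay lower in 47.5% and higher in 6.5%, so the share of the enzyme genes that lay lower was close to that of genes at large. The count of 19 and the share over all genes were both smaller with peak centres, without flanks and with only stronger peaks. The median difference was also smaller in size with only stronger peaks, as given under the processing. Limma, fitted over all genes with Benjamini-Hochberg adjustment, called 0 of the 19970 windows (0%) and none of the 37. At an unadjusted p under 0.05 it counted 8 of the 37 lower (MEN1, KMT2D, EZH1, KMT2B, EHMT2, KMT2E, WDR5 and EHMT1) and 0 higher, against 4697 lower and 345 higher genes in all. With 2 lists against 2, an exact two-sided permutation test of a single gene cannot give a p below 0.333, and the p-values measure only the spread between these lists.

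The largest differences without overlap were in KMT5C, MEN1, EHMT1 and KMT5A. Among all gene windows, from the largest fall up, they lay at percentiles 11.6, 12.8, 20.0 and 25.4. The 3 Mb around KMT5C were covered at 8.15 and 9.81% without UV and at 4.05 and 4.66% at 3 h. Around MEN1 this was 15.6 and 18.5% and then 8.51 and 8.0%. Around EHMT1 it was 9.64 and 14.9% and then 3.61 and 3.71%, and around KMT5A 17.9 and 20.3% and then 11.5 and 10.8%. In KMT5C, whose values are given above, the means were 22.8 ± 9.30% and 10.5 ± 4.68% (SD, n = 2 each), a difference of −12.3 percentage points (SE 6.35, limma adjusted p = 0.364). It was −18.9 without replicate 1 and −5.73 without replicate 2 of the lists without UV. MEN1 encodes menin, the subunit that tethers KMT2A and KMT2B to chromatin. Its window was covered at 13.3 and 11% without UV and at 1.08 and 0% at 3 h, a difference of −11.62 (SE 1.16, limma adjusted p = 0.0776). The MEN1 lists were thus apart by several times their spread, but the bases covered in both lists without UV and in neither at 3 h, 1.27 kb, all lay downstream of MEN1, inside the neighbouring gene MAP4K2. Over the gene without its flanks the difference was −2.77. Past the first 1 kb of MEN1 the conditions overlapped, with 6.35 and 0% without UV and 0% in both lists at 3 h. EHMT1, which writes H3K9 dimethylation with its partner EHMT2, was covered at 11.6 and 14.4% without UV and at 4.35 and 5.14% at 3 h, a difference of −8.26 (SE 1.29, limma adjusted p = 0.107). In EHMT1 the lower coverage was spread along the gene, with 32 segments and 7.98 kb covered in both lists without UV only and 0.199 kb at 3 h only. KMT5A, the H4K20 monomethyltransferase, was covered at 8.44 and 11.5% without UV and at 0 and 6.83% at 3 h, a difference of −6.57 (SE 3.25, limma adjusted p = 0.349), and its pair at 3 h were far apart. Its difference was −3.15 without replicate 1 and −9.99 without replicate 2 at 3 h. Past the first 1 kb of KMT5A the conditions overlapped, with 8.67 and 12.6% without UV and 0 and 9.94% at 3 h.

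By role, the windows were lower at 3 h without overlap in 7 of 14 H3K4 genes, 4 of 5 H3K9 genes and 1 of 4 H3K27 genes. They were also lower in all 3 H4K20 genes, DOT1L, both SMYD genes and 1 of 8 demethylase genes. Over all genes 47.5% were lower and 6.5% higher. These counts include the flanks, and those for gene bodies are given below. The groups are small, and differences between roles were not tested. The H3K4 genes were MEN1, WDR5, KMT2E, KMT2B, KMT2D, SETD1B and KMT2A, with differences from −11.62 to −0.43, and that of KMT2E turned when peak centres were counted (0.0272 centres per 10 kb). Among the H3K9 genes, EHMT1, EHMT2, SETDB1 and SETDB2 were lower, and SUV39H2, a writer of H3K9 trimethylation, went the other way with 0 and 0.68% without UV and 1.54 and 0.69% at 3 h. Its lower list at 3 h was barely above its higher list without UV, and the values came from 2 peaks in replicate 1 and 1 peak in replicate 2 at 3 h (limma adjusted p = 0.513). KMT2C, the other gene above, differed by 0.16 points at a level under 0.3% (limma adjusted p = 0.735). Of the H3K27 genes only EZH1, the second Polycomb methyltransferase, was apart, with 6.15 and 6.81% without UV and 1.82 and 0% at 3 h. DOT1L, the H3K79 methyltransferase, was covered at 3.57 and 9.19% without UV and at 1.11 and 0.26% at 3 h, and its difference of −5.69 points was −2.89 without replicate 2 of the lists without UV. The demethylase genes had the smallest median difference of the groups of several genes, −0.18 points, and KDM6B, which removes H3K27 methylation, was the member without overlap (3.97 and 7.33% without UV, 1.13 and 2.04% at 3 h).

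Within gene bodies, taken as the gene without its first 1 kb, 10 of the 37 genes were lower without overlap and 2 higher, again SUV39H2 and KMT2C. Over all 19499 genes with a body this held for 36.6% and 5.89%. By role, bodies were lower in 3 of 14 H3K4 genes, 1 of 5 H3K9 genes, 1 of 4 H3K27 genes and 2 of 3 H4K20 genes. They were also lower in DOT1L, both SMYD genes and 0 of 8 demethylase genes. Of the genes lower in the window, SETDB1 and KMT2A had no peak in the body in any list. The bodies of MEN1, KMT2D, KMT2B, EHMT2, SETDB2, KMT5A and KDM6B overlapped between conditions. Limma called 99 bodies lower and 3 higher, 0.523% of all, and 0 of the 37, of which SMYD2, KMT5C, KMT2E, WDR5 and EHMT1 were lower at an unadjusted p under 0.05 and 0 higher, against 3235 lower and 323 higher bodies in all. The median difference was −1.10 points against −1.06 over all genes. KMT5C had the largest, with 26.5 and 30.3% without UV and 0 and 8.42% at 3 h over a body of 7.27 kb (difference −24.2, SE 4.18, limma adjusted p = 0.186). Upstream flanks were covered more than downstream flanks, in the 37 genes and in all genes. Upstream of the 37 genes, 12.0 and 13.3% of the 5 kb were covered without UV and 6.44 and 5.95% at 3 h, and downstream 4.56 and 6.5% and then 3.87 and 2.86%. Over all genes the upstream flanks were covered at 16.2 and 16.5% without UV and at 11.4 and 11.5% at 3 h, and the downstream flanks at 12.2 and 12.8% without UV and at 8.66% in both lists at 3 h.

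Which genes lay lower followed their base composition, in the enzyme genes as in all genes. Of the 12 genes whose window had 50% G+C or more, 10 were lower at 3 h without overlap, with a median difference of −4.47 points, against 72.5% and −7.62 for all genes of that class. Of the 9 genes from 42% to under 50%, 6 were lower (median −1.95, against 52.5% and −2.61). Of the 16 genes under 42%, 3 were lower and 2 higher (median −0.20, against 22.4% lower, 14.8% higher and −0.14). Across the 37 genes, window G+C and the H3K36me2 difference had a Pearson r of −0.63 and a Spearman rho of −0.63. The points share lists and sequencing depth, and the part of base composition in the difference was not tested.

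**Figure D2:**
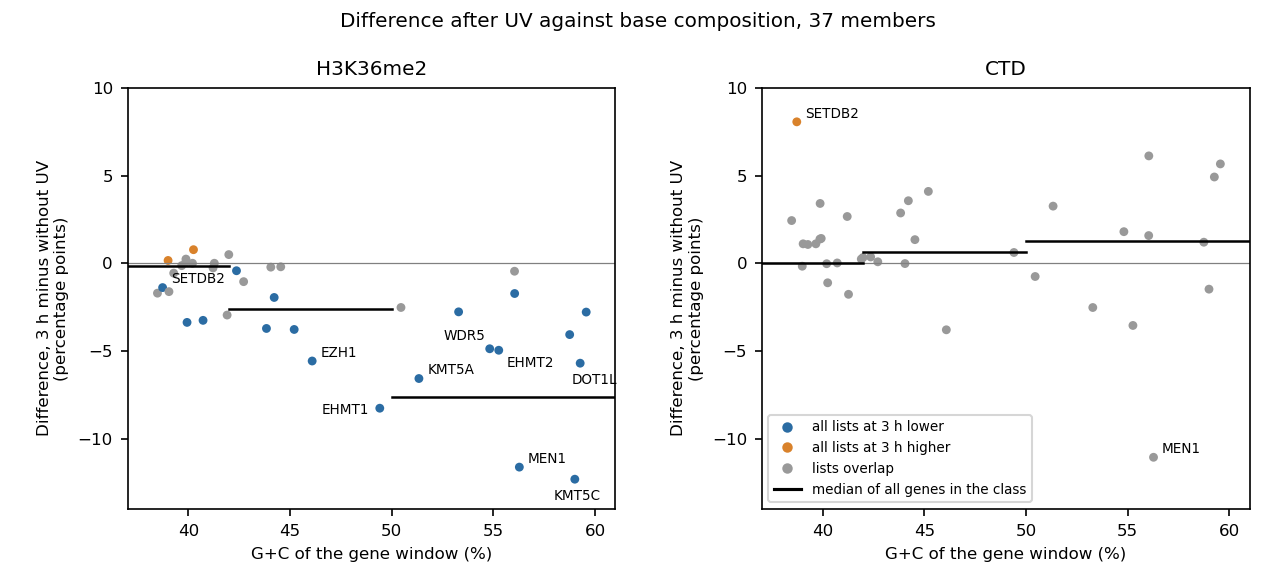
Difference of means in the gene window, 3 h minus without UV (vertical axis, percentage points), against the G+C content of the window (horizontal axis, %), 1 dot per gene, for H3K36me2 (left) and the CTD (right). Blue and orange dots have all lists at 3 h below or above all lists without UV, and black lines give the median of all protein-coding genes in 3 classes of G+C. KMT5C and MEN1 lie lowest for H3K36me2, and SETDB2 is the only gene without overlap for the CTD.

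H3K36me2 covered less of the promoters of these genes than of promoters in general. In the 2 kb centred on the outermost start, 25 of the 37 had no H3K36me2 peak in any list. The other 12 had one in at least 1 list, as did 51.5% of all promoters. Pooled over the 37 promoters, 3.91 and 5.93% of bases were covered without UV and 1.4 and 3.53% at 3 h, against 12.9, 13.6, 8.16 and 8.71% over all genes. The dip sat at the start itself. In the first 1 kb inside the gene 4.56 and 4.19% were covered without UV and 1.48 and 2.74% at 3 h, whereas the next 1 kb was covered at 9.88 and 16.0% and then 6.76 and 10.5%. At the start of the canonical transcript, a definition added after the data had been seen, 28 promoters were free of peaks, and the pooled values were 0.24 and 3.16% without UV and 0 and 0.35% at 3 h, against 11.8, 12.6, 7.21 and 7.79% over all genes.

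Only SETD7 and EED, a core Polycomb subunit that binds trimethylated H3K27, had a promoter with a peak in all 4 lists, against 15.8% of all genes. The SETD7 promoter was covered at 62.7 and 57.4% without UV and at 35.6 and 65.2% at 3 h, and that of EED at 21.5 and 9.70% and then 16.3 and 16.6%, so the conditions overlapped in both. Both starts are outer ones, 50.5 and 43.5 kb upstream of the canonical start, and at the canonical starts of these genes no list had a peak. The KMT5A promoter printed above was the only one of the 37 without overlap, with 8.90 and 10.4% without UV and 0% in both lists at 3 h, against 15.8% of all genes that were lower and 2.93% that were higher (0 of the 37). Its peaks ended at positions −822 and −792 bp relative to the start, with a −log10 p of 1.88 and 1.82, outside the CG-rich run. WDR5 was covered at 29.2 and 47.5% without UV and at 0 and 48.9% at 3 h, so its lists at 3 h lay at opposite ends of the range.

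The CTD lists gave another picture, in which the enzyme genes were covered like other genes. The mean over the 6 lists had a median of 14.4% over the 37 windows and of 15.1% over all genes. The windows held 626 to 691 peak centres per list. Window and surroundings went together, with a Pearson r of 0.82 and a Spearman rho of 0.82 over the 37 genes (r = 0.78 over all genes), and the window was below its surroundings in 15 of 37 genes, against 39.4% of all genes. Over the 37 genes the levels of H3K36me2 and of the CTD had a Pearson r of 0.01 and a Spearman rho of 0.24, a description over 2 ChIPs that differ in target, cells and control. SUZ12, free of H3K36me2, had a mean CTD coverage of 8.76%.

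KMT2B, KMT5A, EHMT2 and MEN1 had the highest CTD levels. KMT2B, a writer of H3K4 trimethylation at promoters, was covered at 38.9, 29.1 and 11% without UV and at 29.0, 15.6 and 51.4% at 3 h. KMT5A was covered at 39.9, 22 and 6.69% without UV and at 22.7, 14.0 and 41.7% at 3 h. In both genes the lists of a condition spread more widely than the conditions differed, with replicate 1 without UV and replicate 3 at 3 h on top. EHMT2 was covered at 42.4, 10.4 and 25.8% without UV and at 12.9, 17.4 and 37.6% at 3 h. MEN1 was covered at 49.8, 24.0 and 14.6% without UV and at 13.3, 10.7 and 31.3% at 3 h, and the same 2 lists were the highest of their condition in both genes.

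These 2 lists stood apart at G+C-rich genes in general. The Pearson r of CTD coverage with window G+C over the 37 genes was 0.79 in replicate 1 without UV and 0.81 in replicate 3 at 3 h, but 0.16 in replicate 3 without UV, and 0.63, 0.35 and 0.46 in the other lists (replicate 2 without UV, replicates 1 and 2 at 3 h). Over all genes it was 0.63 and 0.72 in the first 2 lists and 0.05 in replicate 3 without UV. The wide spread of KMT2B, KMT5A, EHMT2 and MEN1 within conditions thus moved with these lists, and the part of library composition in it was not tested.

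EZH2, KMT2C, SUV39H2 and KDM5A had the lowest CTD levels. EZH2 was covered at 0, 0.94 and 0.25% without UV and at 0.77, 0.34 and 0% at 3 h. KMT2C was covered at 0.64, 0.46 and 0.75% without UV and at 0.87, 0.39 and 0.08% at 3 h. Both lie in the sparse stretches of chromosome 7 and overlapped between conditions. SUV39H2 was covered at 3.88, 6.13 and 6.94% without UV and at 3.85, 4.25 and 5.51% at 3 h. KDM5A, an H3K4 demethylase, was covered at 5.05, 4.68 and 6.20% without UV and at 8.0, 6.5 and 4.74% at 3 h, again with overlap.

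SETDB2, an H3K9 methyltransferase gene on chromosome 13, was the only one of the 37 in which the CTD lists of the conditions did not overlap in the window. It was covered at 6.09, 9.30 and 5.20% without UV and at 16.4, 10.5 and 17.9% at 3 h. All lists at 3 h were higher, and the means were 6.86 ± 2.15% and 14.9 ± 3.89% (SD, n = 3 each). The difference of 8.06 points (SE 2.45) had an unadjusted p of 0.0215 and an adjusted p of 1 in limma over all genes. It was of the same size in the gene body (8.13 points), which was also the only body without overlap. Over all genes 5.22% of windows and 4.79% of bodies were higher without overlap, and 2.14% and 2.39% lower (0 of the 37 in each). Limma called 0 windows (0%) and 0 bodies (0%), and at an unadjusted p under 0.05 it counted 646 windows higher and 219 lower, with SETDB2 the only one of the 37, and 600 bodies higher and 248 lower. With 3 lists against 3 the smallest exact permutation p is 0.1. The bases of SETDB2 covered in all 3 lists at 3 h and in none without UV were few, 3 intronic segments of 197, 196 and 37 bp. Over the 37 windows the median difference was 1.11 points against 0.36 over all genes, and it was −0.15 without replicate 3 of the lists without UV.

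Each of the 37 promoters had a CTD peak in at least 1 of the 6 lists, as did 93.2% of all promoters. DPY30, KMT5A, ASH2L and EHMT1 had some in all 6, against 5.48% of all promoters. DPY30, whose product completes the core of the H3K4 methyltransferase complexes, was covered at 56, 29.2 and 67.1% without UV and at 41.2, 10.4 and 9.45% at 3 h. KMT5A was covered at 32.2, 94.9 and 7.75% without UV and at 71.1, 34.0 and 35.3% at 3 h. Neither gene separated the conditions. ASH2L, another core subunit, ranged from 26.5 to 49.7% without UV and from 33.0 to 71.2% at 3 h, and EHMT1 from 16.5 to 29.4% and from 18.9 to 62.5%.

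Promoters of 2 genes were higher at 3 h in all CTD lists and 0 were lower, against 4.69% and 2.94% of all genes. Both calls were lost with 2 kb on either side of the start, with peak centres and with peaks of a −log10 p of 2 or more. KMT5C, whose promoter is printed above, was covered at 27.4, 9.25 and 0% without UV and at 33.3, 38.9 and 64.2% at 3 h. Its peaks at 3 h, of 1.67- to 1.95-fold enrichment, lay on both sides of the start in replicates 2 and 3 and only inside the gene in replicate 1. KDM3A, an H3K9 demethylase, was covered at 0, 0 and 20.8% without UV and at 35.5, 36.4 and 47.4% at 3 h. At its canonical start, 0.724 kb further in, the KDM3A lists overlapped, with 0, 18.4 and 36.1% without UV and 35.5, 43.5 and 83.6% at 3 h. Over the 37 promoters the median difference was 1.80 points, against 0.13 over all genes, and it was −1.07 without replicate 3 at 3 h.

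The bases shared by every list were counted over 4 lists for H3K36me2 and over 6 for the CTD, so these counts cannot be compared between the ChIPs. All 4 H3K36me2 lists shared 83.8 kb, 2.30% of the windows against 3.86% over all genes, in 145 segments of 13 genes, and 65.3 kb of it was in SMYD3. Of these segments 106 lay in SMYD3 and 16 in SETD7, and 86.9% of the 145 were intronic. Both lists without UV and neither at 3 h covered 60.7 kb in 27 genes, 1.66% of the windows against 1.98% over all genes. Both at 3 h and neither without UV covered 20.7 kb in 13 genes, 0.568% against 1.06%. Of these bases, 31.3 and 15.6 kb were in SMYD3. No base of the 37 windows lay under a CTD peak in all 6 lists, against 0.00733% of the bases over all genes. CTD bases in all 3 lists at 3 h and none without UV came to 9.88 kb in 53 segments of 21 genes, and the opposite to 5.23 kb in 25 segments of 17 genes. These were 0.271% and 0.143% of the windows, against 0.308% and 0.18% over all genes.

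Genes of the same pathways that are not among the 37 were counted alongside. Of 20 complex partners, such as JARID2 and MTF2 of the Polycomb complex and the KMT2 partner PAXIP1, 8 were lower in H3K36me2 without overlap and 3 higher, against 47.5% and 6.5% of all genes, with a median level of 2.82% and a median difference of −0.95 points. Of 14 genes for H3K36 enzymes and their partner, such as NSD1, SETD2 and KDM2A, 8 were lower and 1 higher, against the same shares of all genes, with a median level of 3.75% and a median difference of −1.21 points. In the CTD lists 3 of the 20 partners and 1 of the 14 H3K36 genes were higher without overlap and 0 of either lower, against 5.22% and 2.14% of all genes, with median levels of 13.2 and 18.1%. Limma called none of the 19970 windows in either ChIP, these genes included.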

How the data were processed

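The authors trimmed reads with Trim Galore 0.6.5, aligned them with BWA 0.7.17-r1188 to hg38 without chromosome Y, discarded mapping qualities under 30, blacklisted regions and duplicates, and used MACS2 2.2.7.1 (p cutoff 0.01) to call the broad peaks of every replicate. The control of H3K36me2 was input, pooled over its duplicates. The deposited fold enrichment is the ratio of ChIP to control, and the deposited −log10 p-values and −log10 q-values are those of the caller. The weakest peaks of the lists had a −log10 p of 1.22 to 1.42, below the stated cutoff.

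Bases under a peak and peak centres were counted with NumPy 2.4.6 and checked against bedtools 2.31.1. The lists carry no read depth, so precision rests on the spread between replicates. Each ChIP was fitted apart with limma 3.58.1 in R 4.3.3 (variance trend on log10 length) over all genes and called at an adjusted p under 0.05. The fit was also run on simulated windows with normal noise and a common SD within each class of length. These lists are less regular, so that run does not check the calls made here. Promoter calls were counts without overlap. Values in every list were printed for genes called, the 4 highest and 4 lowest levels, the 4 largest differences without overlap in each direction, and promoters covered in every list or without overlap (up to 6). DOT1L, EZH1, KDM6B, the WDR5 promoter and the printed intron segments were named after their values had been seen. Alternatives changed the peaks used, measure, region, scaling, variance model, filter, replicates and block. The genes and lists were chosen with earlier results of these data known.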

Additional observations from a re-analysis of the deposited data

Results flagged for a closer look

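The window of SETDB2 went in opposite directions in the ChIPs. The H3K36me2 difference, 3 h minus without UV, was −1.39 percentage points, with both lists at 3 h at 0. Without UV the lists covered only 0.98 and 1.79%, from 3 and 2 peaks. The CTD difference was 8.06 points, with all 3 lists at 3 h above all 3 without UV. In the gene body the H3K36me2 conditions overlapped, at 0.39 and 0% without UV and 0% in both lists at 3 h. The CTD difference there was 8.13 points. The difference between these differences was not tested, and the ChIPs differ in target, cells and control. No outlier test was made within groups, which hold 2 or 3 lists.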

How the results depend on the processing

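Of the counts and medians recomputed, 275 kept their value within 1.5 times or 1 SD and 103 did not, while the difference of single genes reversed in 2 recomputations: KMT2E by peak centres (0.0272 centres per 10 kb) and KMT2C with peaks of −log10 p of 2 or more (−0.0481 points). Repeatable peaks, those overlapped by 1 bp, or over 50% of their length, in some other list of their condition, are selected within a condition. The cause of the moves listed here was not tested. A percent in brackets is the share of all genes in the same count. Lists carry no depth, so counting error cannot be given.

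H3K36me2 genes called lower by limma, 0 as reported, were 1 (9.81%) in windows with the filter on genes with peaks, EHMT1, 1 (0.22%) with −log10 p of 3 or more, WDR5, 5 (14.1%) with repeatable peaks and 4 (16.4%) at 50% overlap. In bodies they were 2 (3.87%) with centres, 2 (7.14%) with repeatable peaks and 1 (9.07%) at 50% overlap. Genes lower without overlap in windows, 19 as reported, were 18 (40.7%) after scaling each list to its genome-wide coverage, 14 (36.5%) with lists of equal covered bases, 12 (28.5%) with centres, 10 (37.4%) without flanks and 4 (11.3%) with −log10 p of 3 or more, and genes higher were 1 (7.6%) with centres and 1 (11.7%) with repeatable peaks. The median window difference was −0.41 with −log10 p of 2 or more, 0 with 3 or more and −0.36 at 50% overlap. In bodies the median was −0.10 with centres and 0 with −log10 p of 2 or more, of 3 or more, with repeatable peaks and at 50% overlap, and the genes lower were 2 (8.37%) with −log10 p of 3 or more and 16 (39.6%) with repeatable peaks, with 1 (10%) higher. At promoters the genes lower were 0 with centres (3.92%) and with −log10 p of 2 (7.61%) or of 3 or more (1.91%), 6 (25.3%) with 2 kb either side (median difference −0.15) and 2 (14.3%) at 50% overlap, and the genes higher were 1 (1.59%) with −log10 p of 2 or more, 1 (4.13%) with repeatable peaks and 1 (3.63%) at 50% overlap.

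CTD bodies called higher by limma were 1 (0.0205%) with −log10 p of 2 or more, KDM5B, and 3 (1.12%) at 50% overlap. CTD windows higher without overlap were 2 (4.89%) after scaling, 2 (2.91%) with centres, 4 (2.87%) with −log10 p of 2 or more, 0 (0.00501%) with 3 or more, 8 (15.4%) with repeatable peaks and 9 (22%) at 50% overlap, and windows lower were 1 (1.74%) with centres, 2 (1.74%) with −log10 p of 2 or more, 1 (5.4%) with repeatable peaks and 1 (7.5%) at 50% overlap. In CTD bodies the median difference was 0.19 centres per 10 kb, the genes higher were 2 (2.48%) with centres, 4 (2.23%) with −log10 p of 2 or more, 0 (0.00513%) with 3 or more, 6 (13.8%) with repeatable peaks, 9 (18.4%) at 50% overlap and 2 (4.56%) with equal covered bases, and the genes lower 1 (1.68%) with centres and 1 (1.47%) with −log10 p of 2 or more. CTD promoters higher were 0 with centres (1.55%), with 2 kb either side (5.54%) and with −log10 p of 2 (0.025%) or of 3 or more (0%), 1 (4.68%) at the canonical start and 4 (9.05%) with repeatable peaks, and promoters lower 1 (1.4%) with centres and 1 (5.47%) with repeatable peaks.

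Leaving out 1 list at a time (a lone list is assumed to vary like the others), limma called 0 H3K36me2 windows (0%) and 0 to 3 bodies (0.108 to 10.8%) lower, the 3 being KMT2B, EHMT2 and WDR5 without replicate 1 and MEN1, SETD1B and WDR5 without replicate 2 of the lists without UV. Genes without overlap ranged from 23 to 25 lower (56.5 to 60.9%) and 2 to 6 higher (12.2 to 14.5%) in windows, 12 to 17 (43.8 to 50.5%) and 3 to 7 (10.8 to 12.8%) in bodies, and 1 to 8 (19.4 to 27.8%) and 0 to 2 (5.4 to 7.96%) at promoters, with median differences of −2.49 to −1.45 in windows and −1.26 to −0.39 in bodies. For the CTD they ranged from 0 to 2 lower (4.65 to 7.46%) and 1 to 5 higher (8.65 to 16%) in windows, 0 to 4 (4.98 to 7.9%) and 1 to 5 (8.08 to 14%) in bodies, and 0 to 3 (4.25 to 8.35%) and 3 to 5 (6.44 to 11.7%) at promoters, with median differences of −0.15 to 1.67, −0.25 to 1.44 and −1.07 to 4.69. Window differences in H3K36me2 moved by over 1.5 times in 8 of the 21 genes without overlap, KMT5C, KMT5A, DOT1L, KDM6B, SETDB1, SETD1B, SMYD3 and SUV39H2. The SETDB2 difference in the CTD lists ranged from 6.58 to 10.3 points.

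Coverage did not go together by replicate number, which cannot show whether lists of the same number were handled together. Same-numbered lists had deviations from the mean of their condition with a Pearson r of 0.00964 in H3K36me2 and of −0.269, 0.112 and −0.435 in the CTD. CTD lists of different numbers had an r from −0.310 to 0.453. With 2 lists against 2, the H3K36me2 values can differ only in sign. With the replicate block limma called 0 of the 37 windows or bodies in either ChIP, as without it, and of all H3K36me2 bodies 5 lower and 1 higher, against 99 and 3.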
